A study of Mus musculus with 12 samples.

Results

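The genes described here encode the proteins of the mouse cytosolic ribosome and of the mitochondrial ribosome (mitoribosome). They were taken from the FPKM table (fragments scaled by transcript length and library size) by gene symbol alone. Rpl or Rps with a number and at most 1 suffix letter, Rplp0, Rplp1, Rplp2 and Rpsa formed the cytosolic class, and Mrpl or Mrps with a number formed the mitochondrial class. The rule found 160 of the 51912 genes in the table. The cytosolic class held 82 genes, 50 of the large and 32 of the small subunit, and the mitochondrial class held 78, 49 of the large and 29 of the small subunit. Another 5 matching names carry the pseudogene suffix -ps and were left out, and Rpl6l and Rps4l match the rule although the annotation lists them as processed pseudogenes.

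The cytosolic ribosome translates every messenger RNA that leaves the nucleus. Its protein genes are among the most abundantly transcribed in most cells, and their transcripts begin with a run of pyrimidines, the terminal oligopyrimidine (TOP) tract, through which the kinase complex mTORC1 controls their translation. The mitoribosome translates only the messages of the mitochondrial genome, which encode subunits of the respiratory chain, while all of its own proteins are encoded in the nucleus and imported. In the striatum, the medium spiny neurons that are lost in Huntington's disease depend heavily on oxidative metabolism.

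The libraries were made from total RNA of the striatum of mice 10.5 weeks old, in 4 groups of 3. R6/2-T mice carried the R6/2 transgene, a fragment of human HTT with a long CAG repeat that models Huntington's disease, and received an adeno-associated virus (AAV) with a short hairpin RNA against TRAX (shTRAX), the protein encoded by Tsnax. R6/2-C mice carried the same transgene and received an AAV with a control shRNA. WT-T and WT-C mice were wild type and received the shTRAX and the control AAV. All 4 groups were on the mixed background labelled B6CBAFI/J and were injected in both striata when 5 weeks old, with 2 µl at each spot and a titre of 2.5e9 vector genomes in 1 µl. The sources used here do not give the promoter that drives the shRNA. Whether each library is a separate animal is not stated in the labels, and each p-value reflects only the spread among these libraries.

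Libraries held 131783370 to 229332386 StringTie counts, which are estimated from coverage, and 8.03% to 11.2% of these fell on genes of the mitochondrial genome. Tsnax had 40.0 to 47.03 CPM (counts scaled to library size) in R6/2-T and 168 to 197 CPM in R6/2-C, and 27.6 to 33.6 CPM in WT-T and 151 to 167 CPM in WT-C, on the side each label gives. All 14 markers of medium spiny neurons were detected in every library. Their summed FPKM was 1325 to 1397 in R6/2-T, 1787 to 2002 in R6/2-C, 3127 to 3762 in WT-T and 3080 to 3702 in WT-C. In tissue libraries, fewer cells of a type and less RNA per cell cannot be told apart. Markers of the choroid plexus, which lies beside the striatum, varied most between libraries, with sums of 653 to 1195 FPKM in R6/2-T, 79.7 to 1236 in R6/2-C, 94.5 to 808 in WT-T and 90.8 to 223 in WT-C. The sum of 1236 was that of R6/2-C 2, against 79.7 in R6/2-C 1 and 114 in R6/2-C 3.

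The classes differ in the sequence at which their transcripts start. RefSeq promoters of build GRCm38.p6, each with 250 bases before and 50 after the annotated start, matched 60 of the 82 cytosolic and 69 of the 78 mitochondrial genes. A C followed by at least 5 bases that are each C or T, beginning within 5 bases of the start, was present in 25 of the 60 cytosolic and in 4 of the 69 mitochondrial promoters (41.7% and 5.8%), against 11.9% of the 27025 genes in the table. The windows below show this tract, in capitals, in Rps6, whose TOP control is the textbook case, and in 3 cytosolic members named in the comparisons that follow. Each runs 30 bases, from 15 before the annotated start, 5′ to 3′ on the gene's strand.
Rps6 (chr4:86857353-86857382, minus strand): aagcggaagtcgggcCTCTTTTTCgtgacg
Rpl15 (chr14:18270972-18271001, minus strand): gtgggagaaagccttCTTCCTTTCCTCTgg
Rpl31 (chr1:39367836-39367865, plus strand): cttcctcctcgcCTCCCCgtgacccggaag
Rpl12 (chr2:32961697-32961726, plus strand): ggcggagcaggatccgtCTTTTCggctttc

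Of 4 short motifs searched, 3 had a higher share in both classes than in all genes, 1 of them through a single promoter in the mitochondrial class. CCGGAAGT, the core that ETS factors such as GABPA (NRF-2) recognise, was found on either strand in 12 of 69 mitochondrial and 12 of 60 cytosolic promoters (17.4% and 20.0%), against 4.31% of all genes. AAGATGGC, the core recognised by YY1, was found on either strand in 12 of 69 mitochondrial and 5 of 60 cytosolic promoters (17.4% and 8.33%), against 3.19% of all genes. The palindromic CGCG element that BANP binds, searched for as a single fixed form of 10 letters, was found in 6 of 60 cytosolic and 1 of 69 mitochondrial promoters (10.0% and 1.45%), against 0.525% of all genes. TATAAA in the 50 bases before the start was found in 0 of either class, against 3.15%. CCGGAAGT and AAGATGGC do not contain each other, and Mrps27 holds both. The windows below, 30 bases centred on the match, show the match in capitals in 4 mitochondrial members that passed a test in the comparisons that follow. In Mrps22 the match begins 11 bases before the start, in Mrps27 and Mrps18a 14 and 11 bases after it, and in Mrpl52, where the complement is shown, 1 base after it.
Mrps22 (chr9:98601672-98601701, minus strand): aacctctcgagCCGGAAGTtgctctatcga
Mrps27 (chr13:99344789-99344818, plus strand): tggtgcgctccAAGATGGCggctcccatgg
Mrps18a (chr17:46111004-46111033, plus strand): aggtgcgttccAAGATGGCggccctcaggg
Mrpl52 (chr14:54426899-54426928, plus strand): gggccacgcccACTTCCGGttcccttgctc

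Cytosolic ribosomal protein genes were more abundant than mitochondrial ones in every library, and the distance between the classes was smallest in R6/2-T. The median cytosolic gene had 68.1, 69.3 and 74.7 FPKM in the R6/2-T libraries, 103, 79.0 and 106 in R6/2-C, 130, 90.9 and 73.6 in WT-T, and 82.4, 91.1 and 108 in WT-C. The 3 R6/2-T values lay close together at the low end, with WT-T 3 among them, while the other groups overlapped. The median mitochondrial gene had 14.7, 15.8 and 15.9 FPKM in R6/2-T, 18.3, 15.7 and 17.6 in R6/2-C, 17.0, 14.5 and 13.5 in WT-T, and 14.4, 13.7 and 16.2 in WT-C, so that all groups overlapped.

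The cytosolic median exceeded the mitochondrial one by 2.19 ± 0.05 in R6/2-T, 2.46 ± 0.13 in R6/2-C, 2.67 ± 0.25 in WT-T and 2.65 ± 0.13 in WT-C (difference of class medians of log2(FPKM + 0.1), SD, n = 3 each). The R6/2-T libraries ranged from 2.13 to 2.23 and lay below all other libraries, which began at 2.33 in R6/2-C, 2.43 in WT-T and 2.50 in WT-C. These class values are a description, with no test. The median of 938 other protein-coding genes with a transcript under 1000 nt was also lowest in R6/2-T, at 2.61 to 2.91 FPKM. It was 3.34 to 3.92 FPKM in R6/2-C, 3.00 to 4.85 in WT-T and 3.32 to 4.24 in WT-C. The part of transcript length in the class distance was not tested. The ratio of summed FPKM was 5.61 to 5.88 in R6/2-T, 6.04 to 7.15 in R6/2-C, 5.88 to 8.46 in WT-T and 6.73 to 7.75 in WT-C, so that R6/2-T met the lowest WT-T library.

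**Figure D1:**
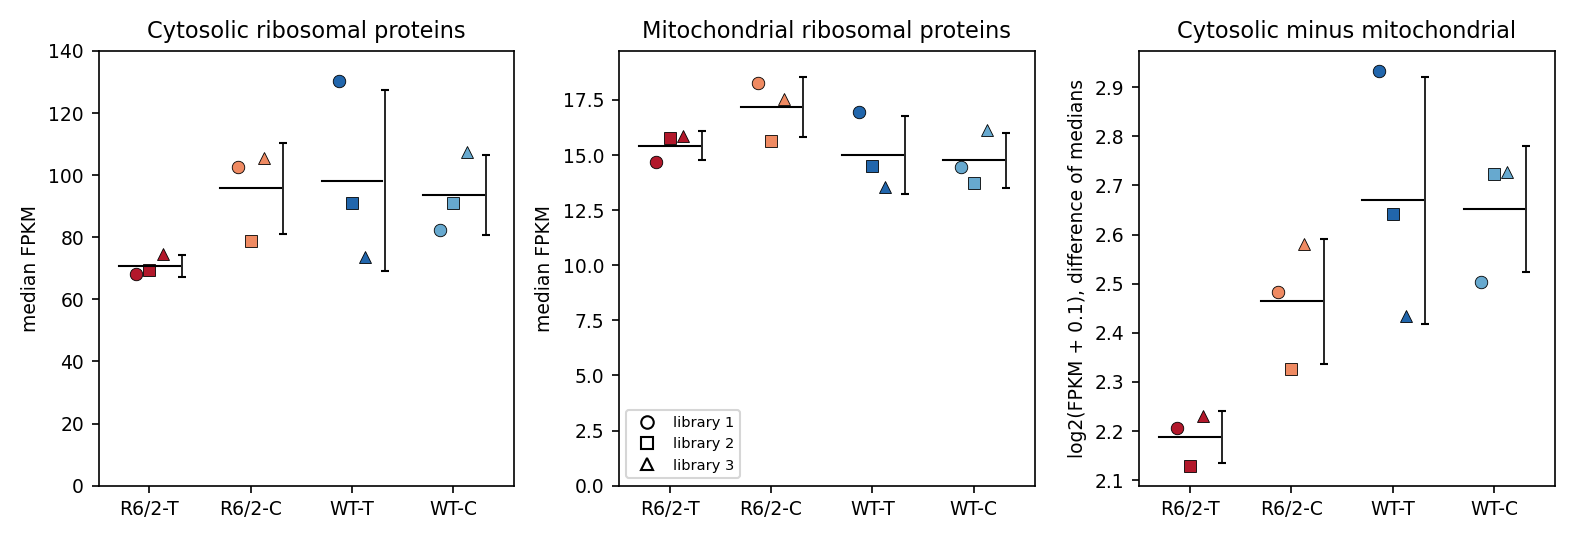
Median FPKM of the 82 cytosolic (left) and 78 mitochondrial (middle) ribosomal protein genes in each library, and the difference of the class medians of log2(FPKM + 0.1) (right). Circles, squares and triangles are libraries 1 to 3, horizontal lines are group means and bars are 1 SD (n = 3). The R6/2-T libraries lie between 2.13 and 2.23 in the right panel, below the other 9 libraries.

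The cytosolic genes moved together from library to library. Of 81 tested, 7, 2 and 6 lay above their own mean over the 12 libraries in R6/2-T, against 75, 21 and 75 in R6/2-C, and 78, 41 and 10 in WT-T, against 21, 41 and 77 in WT-C. Libraries of the same group could thus sit at opposite ends, as WT-T 1 and WT-T 3 did. Mitochondrial genes were less uniform: 31, 35 and 38 of 78 lay above their mean in R6/2-T, 75, 33 and 65 in R6/2-C, 45, 29 and 23 in WT-T, and 18, 26 and 38 in WT-C.

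The summed FPKM of 10 microglia markers was 208, 280 and 296 in R6/2-T, 332, 464 and 921 in R6/2-C, 1377, 745 and 410 in WT-T, and 490, 866 and 1182 in WT-C. The lowest sums were those of R6/2-T and the highest that of WT-T 1, and only Itgam of these markers was listed under 0.1 FPKM in any library. In the same library order, 78, 41 and 10 of 81 cytosolic genes lay above their mean in WT-T, and 21, 41 and 77 in WT-C. The order of these counts followed that of the sums in both groups. In R6/2-T the counts were 7, 2 and 6. Within R6/2-C, library 1 had a sum of 332 with 75 genes above their mean, library 2 had 464 with 21, and library 3 had 921 with 75. The part of microglia in the ribosomal protein values was not tested.

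**Figure D2:**
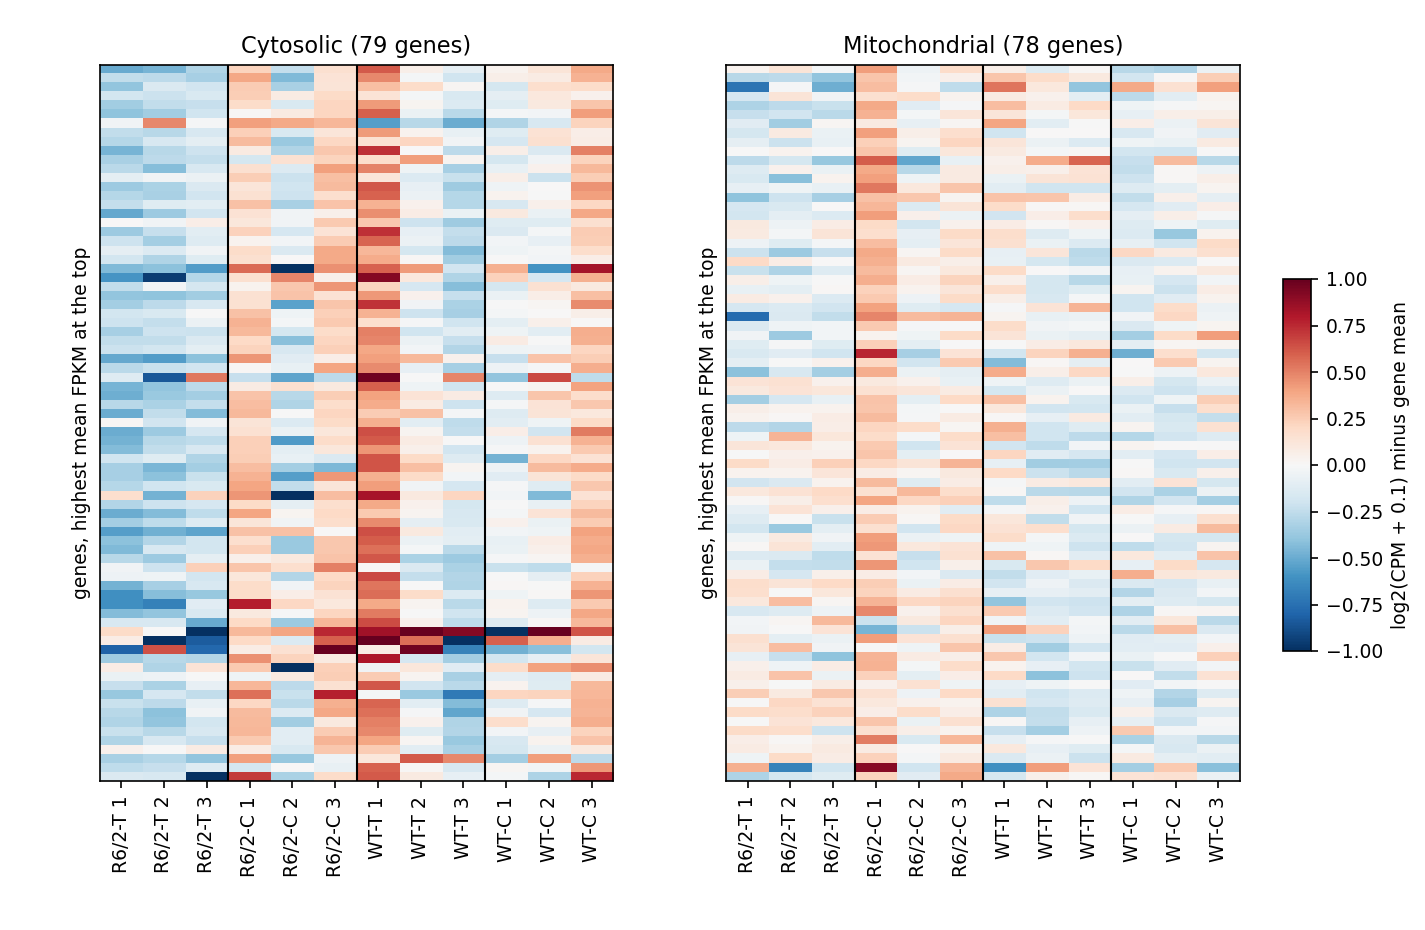
Log2(CPM + 0.1) of each ribosomal protein gene minus its mean over the 12 libraries, with genes in rows ordered by mean FPKM and libraries in columns grouped as R6/2-T, R6/2-C, WT-T and WT-C. Rpl10l, Rpl3l and Rpl39l, which are close to 0, are left out. Cytosolic genes are mostly below their means (blue) in R6/2-T and above them (red) in WT-T 1, R6/2-C 1, R6/2-C 3 and WT-C 3.

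Within the cytosolic class, levels spanned a wide range from near 0 upwards. The highest means over the 12 libraries were those of Rplp1, which encodes a protein of the stalk that recruits elongation factors (559 FPKM), Rps15 (357 FPKM) and Rpl13 (330 FPKM). The other stalk genes had 122 FPKM (Rplp0) and 75.8 FPKM (Rplp2), Rpsa, which also acts as a laminin receptor, had 184 FPKM, and Rps6, the substrate of S6 kinase, had 178 FPKM. Rps27a, which is made as a fusion with ubiquitin, had 20.5 FPKM, and Rpl22 had 35.2 FPKM. In the mitochondrial class the range was narrower, with 46.0 FPKM for Mrpl20, 36.5 for Mrpl52 and 34.3 for Mrps21 at the top and 4.49 for Mrps35, 4.08 for Mrpl53 and 3.23 for Mrpl17 at the bottom.

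Tissue-restricted paralogs were scarce. Rpl3l, which takes the place of Rpl3 in heart and skeletal muscle, averaged 0.19 FPKM against 214 FPKM for Rpl3. Rpl39l, known from male germ cells, averaged 0.10 FPKM against 21.2 FPKM for Rpl39, and Rpl10l, known from the testis, was listed at 0.0001 FPKM in place of 0 and was not tested, against 31.2 FPKM for the X-linked Rpl10. Rps27l, a paralog that responds to p53 and is not counted among these, averaged 14.1 FPKM, against 49.0 FPKM for Rps27. The other 81 cytosolic and all 78 mitochondrial genes passed the filter on low counts.

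R6/2-C was compared with WT-C to show the effect of the R6/2 transgene under the control virus. Mitochondrial ribosomal protein genes lay slightly higher in R6/2-C, and the median change of the cytosolic ones was close to that of all genes. Of 78 mitochondrial genes 5 rose and 0 fell (edgeR quasi-likelihood test, Benjamini-Hochberg adjusted p under 0.05 over 23453 genes), against 9.09% of all genes called, 4.87% higher and 4.22% lower, so that the 6.41% that rose is near the background. The median log2 change was 0.14 in the mitochondrial class, 0.04 in the cytosolic class and −0.02 over all genes, and 70 of 78 mitochondrial changes (89.7%) were above 0, against 48.1% of all genes. All R6/2-C libraries lay above all WT-C libraries in 23 mitochondrial and 3 cytosolic genes and below them in 1 of each class, against 15.6% and 14% of all genes.

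Mrps22 (ENSMUSG00000032459, chr9:98588730-98601660, minus strand, GRCm38), a small-subunit protein whose loss causes a respiratory chain disorder in humans, had 24.3, 21.4 and 21.8 CPM in R6/2-C and 14.6 to 16.2 CPM in the 3 WT-C libraries. The groups did not overlap, and the log2 change was 0.56 (SE 0.10, adjusted p = 0.0108). Mrps27 (ENSMUSG00000041632, chr13:99344786-99415561, plus strand), a pentatricopeptide repeat protein, had 29.3, 26.6 and 26.9 CPM in R6/2-C and 21.6, 21.1 and 20.5 CPM in WT-C (log2 0.39, SE 0.10, adjusted p = 0.0349). Mrpl39 (ENSMUSG00000022889, chr16:84717576-84735742, minus strand) had 37.3, 42.2 and 37.9 CPM in R6/2-C and 29.4, 26.9 and 32.3 CPM in WT-C (log2 0.41, SE 0.11, adjusted p = 0.0369). Mrps2 (log2 0.28) and Mrpl28 (log2 0.38) completed the called set, at adjusted p = 0.0405 and 0.0490. Leaving out single libraries of any group changed the number called to between 1 and 9, with 1 call without any one of R6/2-C 1, R6/2-C 3, R6/2-T 1, R6/2-T 3, WT-T 2 or the 3 WT-C libraries, 2 without R6/2-T 2 and 9 without R6/2-C 2, and fitting only these 2 groups left 0. The median stayed between 0.08 and 0.23. For fits without single libraries, here and below, the number called over all genes is not reported.

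No cytosolic gene was called in this comparison by edgeR. At an unadjusted p under 0.05 were 3 of 81, against 5931 of all 23453 genes. DESeq2 called 1, against 1772 higher and 1712 lower over all genes. The smallest p belonged to Rpl15, a large-subunit protein that is mutated in some cases of Diamond-Blackfan anaemia, with 139, 128 and 163 CPM in R6/2-C and 98.4, 96.0 and 114 CPM in WT-C (log2 0.48, SE 0.14, adjusted p = 0.0514). Next came Rpl3 (ENSMUSG00000060036, chr15:80077794-80091868, minus strand), which lies at the peptidyl-transferase centre, with 364, 358 and 346 CPM in R6/2-C and 223, 246 and 320 CPM in WT-C (log2 0.44, SE 0.16, adjusted p = 0.118). Rps6 (log2 0.09), Rpsa (log2 0.06) and Rpl22 (log2 0.15) had adjusted p-values of 0.531 to 0.818. Markers of medium spiny neurons moved with the genotype here: 9 of 14 fell and 0 rose, with a median log2 change of −0.90, as did 6 of 10 astrocyte and 4 of 9 oligodendrocyte markers. Their part in the values of the ribosomal protein genes was not tested.

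R6/2-T was compared with WT-T to show the transgene effect under the shTRAX virus. Here the cytosolic class lay lower in R6/2-T and the mitochondrial class was split. Of 81 cytosolic genes 14 fell and 1, Rpl3, rose, while of 78 mitochondrial genes 6 rose and 4 fell. Together 18.5% of the cytosolic and 12.8% of the mitochondrial genes were called, against 22.6% of all genes, so that neither share exceeds the background, while 17.3% of the cytosolic genes fell against 11.1% of all genes and 7.69% of the mitochondrial genes rose against 11.5%. The median log2 change was −0.40 in the cytosolic class, 0.01 in the mitochondrial class and −0.05 over all genes, and 75 of 81 cytosolic changes were below 0. Groups did not overlap, with R6/2-T below WT-T, in 27 cytosolic and 13 mitochondrial genes (20.9% of all genes), and with R6/2-T above WT-T in 1 and 15 (21.3% of all genes). Large and small subunits had similar cytosolic medians, −0.41 and −0.40.

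Among the cytosolic genes that fell, Rps14, whose loss underlies the anaemia of the human 5q deletion syndrome, had 50.2, 59.6 and 52.4 CPM in R6/2-T and 84.5, 86.5 and 69.8 CPM in WT-T (log2 −0.57, SE 0.12, adjusted p = 0.00759). Rpl37a (ENSMUSG00000046330, chr1:72711290-72713813, plus strand) had 31.6, 33.3 and 32.2 CPM in R6/2-T and 72.5, 49.6 and 43.1 CPM in WT-T (log2 −0.77, SE 0.18, adjusted p = 0.0132). In both of these genes the R6/2-T libraries lay below all WT-T libraries. Rps19, the gene most often mutated in Diamond-Blackfan anaemia, fell to 61.6% of the WT-T level, Rplp1 to 64.0% and Rpsa to 71.3%, and Rpl12, Rpl31, Rpl10a, Rpl27, Rpl41 and the pseudogene Rps4l also fell. Rpl3l (ENSMUSG00000002500, chr17:24727820-24736143, plus strand) fell most, to 0.0756 ± 0.0470 CPM in R6/2-T against 0.616 ± 0.216 CPM in WT-T (SD, n = 3 each; adjusted p = 0.00540), but its level is that of 4 to 19 estimated counts in an R6/2-T library.

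Rpl3 ran against its class, with 268, 383 and 272 CPM in R6/2-T and 188, 227 and 195 CPM in WT-T (log2 0.60, SE 0.16, adjusted p = 0.0223). Without R6/2-T 2, WT-T 1 or WT-T 3 it was not called. The pseudogene Rpl3-ps1 is listed at 108 FPKM, and the sources used here do not say how reads were shared between the pair. Rps6 (log2 0.01, SE 0.15) and Rpl22 (log2 −0.05, SE 0.13) did not pass the test either way, at adjusted p = 0.973 and 0.844, while Rplp0 (log2 −0.78, SE 0.43) and Rps27 (log2 −1.17, SE 0.56) had large but variable differences, at adjusted p = 0.216 and 0.164.

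Of the mitochondrial genes that rose in R6/2-T, Mrpl1, a large-subunit protein with a bacterial homologue, had 16.3, 16.2 and 16.8 CPM in R6/2-T and 11.5, 12.1 and 12.9 CPM in WT-T (log2 0.44, SE 0.09, adjusted p = 0.00837). Mrps27 had 24.8, 28.7 and 23.5 CPM in R6/2-T and 17.6, 20.2 and 20.0 CPM in WT-T (log2 0.41, SE 0.10, adjusted p = 0.0133). Mrpl50, Mrps14, Mrpl39 and Mrpl44, the last of which is linked to cardiomyopathy in humans, rose by log2 0.43, 0.35, 0.33 and 0.30. All 6 had R6/2-T libraries above every WT-T library.

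The 4 mitochondrial genes that fell were Mrps18a, Mrpl52, Mrpl12 and Mrps24. Mrps18a (ENSMUSG00000023967, chr17:46110986-46128910, plus strand), which sits in the large subunit in spite of its name and was counted by its name here, had 17.4, 19.9 and 18.2 CPM in R6/2-T and 28.0, 27.8 and 24.2 CPM in WT-T (log2 −0.53, SE 0.11, adjusted p = 0.00799). Mrpl12, which also binds the mitochondrial RNA polymerase, had 37.9, 39.1 and 40.3 CPM in R6/2-T and 58.0, 49.8 and 53.8 CPM in WT-T (log2 −0.46, SE 0.12, adjusted p = 0.0175). Mrps34 (log2 −0.31) and Mrps36, which is also a subunit of the oxoglutarate dehydrogenase complex (log2 −0.18), were not called, at adjusted p = 0.410 and 0.453.

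**Figure D3:**
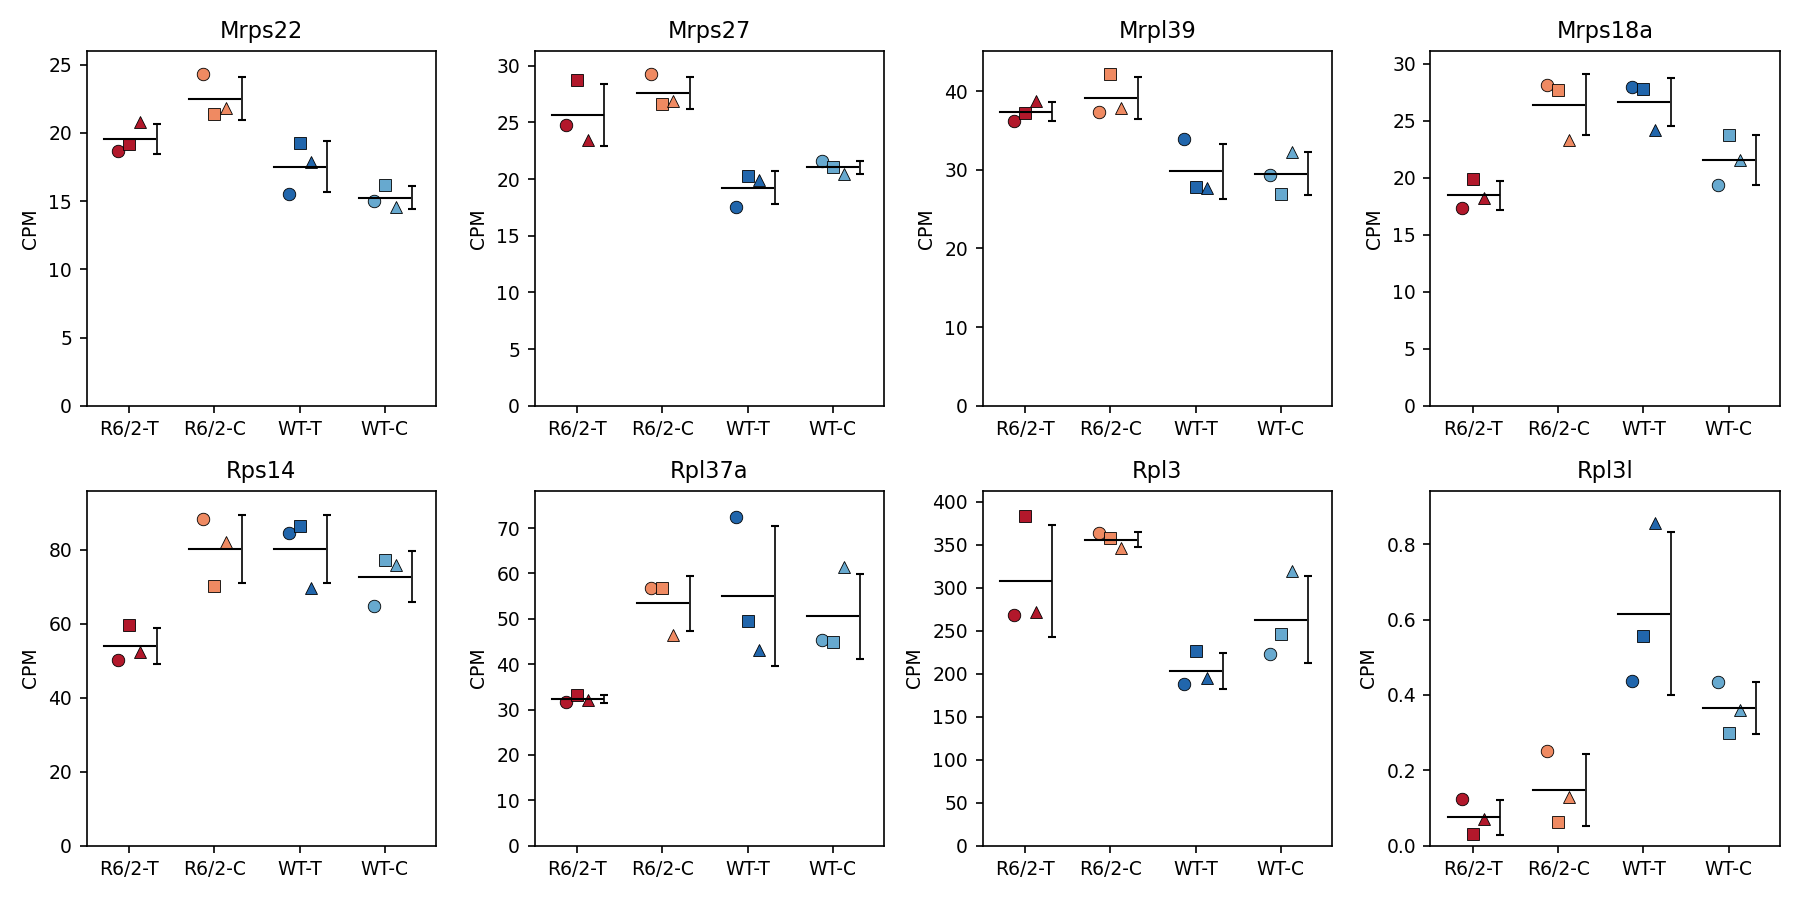
CPM of 4 mitochondrial (top) and 4 cytosolic (bottom) ribosomal protein genes in each library. Circles, squares and triangles are libraries 1 to 3, lines are group means and bars are 1 SD (n = 3). Mrps22, Mrps27 and Mrpl39 have their highest means in R6/2-C, Mrps18a, Rps14 and Rpl37a are lowest in R6/2-T, and Rpl3 and Rpl3l differ in opposite directions between the genotypes.

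Several values move with this cytosolic fall. Without WT-T 1, the library with the highest cytosolic levels and the highest microglia sum, 7 cytosolic genes fell and the median was −0.15, and without WT-T 3 the count was 24 and the median −0.55. The number of cytosolic genes called was 4 without R6/2-T 1, 5 without R6/2-T 2 and 8 without WT-T 2, and of the mitochondrial genes 3, 6 and 4 were called without R6/2-T 1, 2 and 3 and 6 without WT-T 2. Transcripts of the cytosolic class are short, with a median of 926 nt against 1328 nt in the mitochondrial class, and 938 other protein-coding genes with a transcript under 1000 nt had a median log2 change of −0.31, with 12 higher and 142 lower. With an offset for GC content and transcript length the cytosolic median was −0.18, with 1 higher and 9 lower, and the mitochondrial counts became 12 higher and 1 lower. Markers of several cell types were lower in R6/2-T than in WT-T as well. Of 10 microglia markers 7 fell (median log2 −1.28), of 14 medium spiny neuron markers 10 (median −1.41), of 9 oligodendrocyte markers 6 (median −0.71) and of 5 erythroid markers 4 (median −1.23), and 4 of 10 astrocyte, 3 of 7 endothelial and 2 of 5 ependymal markers fell. None of these rose, and of 8 pan-neuronal markers 1 rose and 2 fell. The 7 choroid plexus markers had a median of 1.28, with 0 called. The summed FPKM of the oligodendrocyte markers was 1478 to 1563 in R6/2-T and 2071 to 2932 in WT-T, and that of the erythroid markers 52.4 to 97.7 in R6/2-T and 134 to 209 in WT-T. The part of transcript length and of these cell types in the cytosolic fall was not tested.

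The genotype comparisons under the 2 viruses share no library, so their directions can be set side by side. All 5 mitochondrial genes that rose in R6/2-C against WT-C had a positive change in R6/2-T against WT-T, and 2, Mrps27 and Mrpl39, were called in both, while 96.7% of all genes called under the control virus kept their sign. Of 81 cytosolic genes 36 had the same sign under both viruses, and the other 45 were all higher in R6/2-C than in WT-C and lower in R6/2-T than in WT-T. The cytosolic median of R6/2-C against WT-C was between −0.04 and 0.15 without single libraries, so that its own sign was not fixed. Of 78 mitochondrial genes 43 had the same sign, 33 were higher in R6/2-C and lower in R6/2-T, and 2 were the other way round. Over all genes 71.6% had the same sign.

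**Figure D4:**
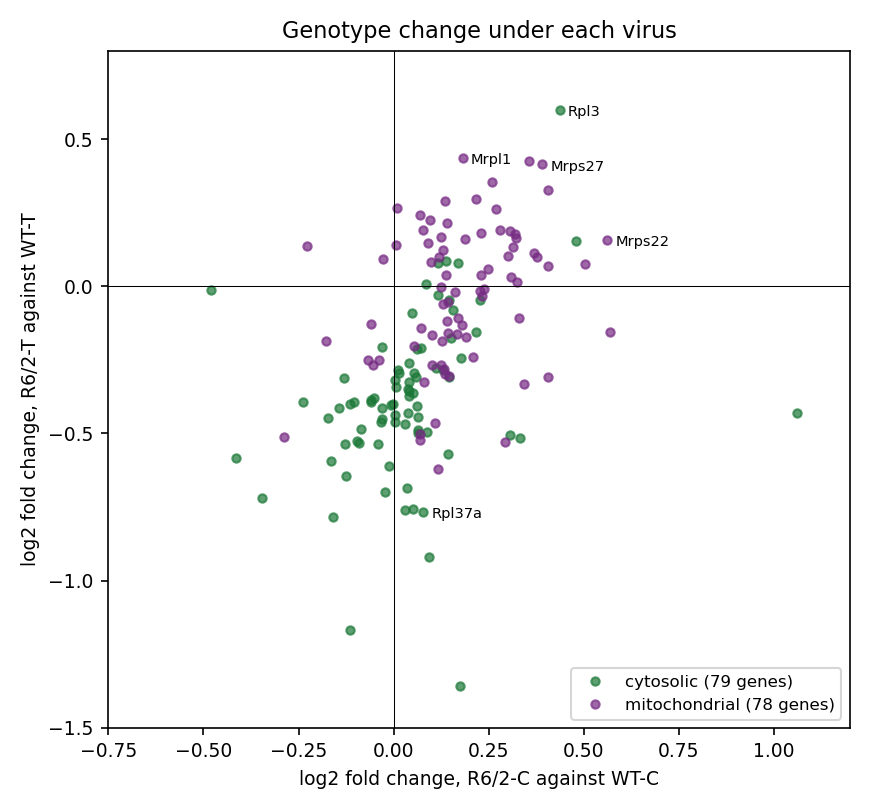
Log2 fold change of each ribosomal protein gene in R6/2-C against WT-C (horizontal) and in R6/2-T against WT-T (vertical), with Rpl3l and Rpl39l left out. Cytosolic genes centre on 0.04 horizontally and −0.40 vertically, and mitochondrial genes on 0.14 and 0.01.

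Over both viruses together, R6/2 against WT, 13 mitochondrial genes rose and 0 fell, and 2 cytosolic genes rose and 6 fell. These are 16.7% and 9.88% of the classes, against 30.7% of all genes, 15.3% higher and 15.4% lower, so that the share that rose in the mitochondrial class is near the background and that of the cytosolic class is below it. The medians were 0.10 and −0.20, against −0.04 over all genes. Mrps27 was lowest in R6/2 at 23.5 CPM and highest in WT at 21.6 CPM, so that the 6 libraries of each genotype did not overlap (log2 0.40, SE 0.07, adjusted p = 0.00174). Mrpl50 (log2 0.39, SE 0.07), Mrpl39 (log2 0.37, SE 0.07), Mrpl1 (log2 0.31, SE 0.07) and Mrps2 (log2 0.23, SE 0.05) were also without overlap, as were Mrpl45 and Mrps9, making 7 mitochondrial genes, and Rpl3l was the 1 cytosolic gene, lower, against 7.22% and 4.95% of all genes. Rpl3 (log2 0.52, SE 0.11, adjusted p = 0.00633) and Rpl15 (log2 0.32, SE 0.10, adjusted p = 0.0289) rose, and the genes that fell included Rpl3l, Rps19, Rplp1 and Rpl31. Of the mitochondrial genes that rose, 6 were among 44 classed as having a bacterial homologue and 7 among 32 classed as mitochondria-specific. This split follows the number in the symbol, so single genes can be misplaced. Leaving out any 1 library other than R6/2-C 1 and WT-C 1 changed the cytosolic count to between 3 and 5, or to 14 without WT-T 3, and without R6/2-C 2 20 mitochondrial genes were called.

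R6/2-T was compared with R6/2-C to show the effect of the shRNA in the disease model. The direction was uniform but no single gene passed: of 81 cytosolic changes 78 were below 0, with a median log2 of −0.36, and of 78 mitochondrial changes 63 were below 0, with a median of −0.15, against −0.03 over all genes. edgeR called 0 genes of either class, against 0.0682% of all genes, 0.0512% higher and 0.0171% lower. At an unadjusted p under 0.05 were 25 of 81 cytosolic and 17 of 78 mitochondrial genes, against 4513 of all 23453. DESeq2 called 10 cytosolic and 7 mitochondrial genes, all lower, against 1078 higher and 663 lower over all genes. The R6/2-T libraries lay below all R6/2-C libraries in 36 cytosolic and 19 mitochondrial genes, against 12.9% of all genes, and above them in 0 of either class, against 14.1%. Without R6/2-C 2, 7 cytosolic and 6 mitochondrial genes were called, and without WT-T 1, 4 and 1. The number called over all genes in these fits is not reported here, so these counts have no background beside them. R6/2-C 2 was the R6/2-C library with the high choroid plexus sum.

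Mrpl14, a large-subunit protein with a bacterial homologue, had the smallest p, with 7.24, 11.2 and 10.4 CPM in R6/2-T and 17.5, 15.5 and 15.7 CPM in R6/2-C (log2 −0.75, SE 0.15, adjusted p = 0.0643). Rps14 had 50.2, 59.6 and 52.4 CPM in R6/2-T and 88.4, 70.3 and 82.0 CPM in R6/2-C (log2 −0.57, SE 0.12, adjusted p = 0.0709). Mrps18a (log2 −0.51, adjusted p = 0.0746), Rpl27 (log2 −0.61, adjusted p = 0.0750), Rpl37a (log2 −0.72, adjusted p = 0.0937) and Mrpl30 (log2 −0.47, adjusted p = 0.0946) followed. Mrps27 (log2 −0.11) and Mrpl39 (log2 −0.07), both higher in R6/2 than in WT, and Rpl3 (log2 −0.21) had adjusted p-values of 0.505 to 0.767. With the GC and length offset the cytosolic median was −0.21 and the mitochondrial one −0.07, the other short protein-coding genes had a median of −0.26 without it, and the 10 microglia markers had a median of −1.03, with 0 called and 7 at an unadjusted p under 0.05. The 14 medium spiny neuron markers had a median of −0.43, with 1 called, lower, and 9 at an unadjusted p under 0.05, and the 7 cortical excitatory markers had a median of −1.10, with 0 called. The 7 choroid plexus markers went the other way, with a median of 0.96 and 0 called. The part of these cell types was not tested.

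WT-T against WT-C gave no such direction. The medians were 0.02 in the cytosolic and 0.04 in the mitochondrial class, against 0.00 over all genes, and edgeR called 0 members, against 0.00426% of all genes. At an unadjusted p under 0.05 were 2 of each class, against 1512 of all 23453 genes. DESeq2 called 0 members, against 43 higher and 73 lower over all genes. All WT-T libraries lay above all WT-C libraries in 1 cytosolic and 6 mitochondrial genes and below them in 2 and 5, against 5.28% and 5.88% of all genes. Rpl10, which is among the last proteins to join the large subunit, had 27.4, 21.4 and 16.9 CPM in WT-T and 32.2, 32.4 and 34.9 CPM in WT-C, without overlap (log2 −0.60, SE 0.23, adjusted p = 0.703). Mrps17 had 26.5, 29.0 and 29.9 CPM in WT-T and 40.5, 33.9 and 33.7 CPM in WT-C (log2 −0.34, SE 0.11, adjusted p = 0.608). The cytosolic median of this comparison was between −0.21 and 0.17 without single libraries.

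The difference between the shRNA changes of the genotypes was tested as an interaction. The median was −0.40 in the cytosolic class and −0.21 in the mitochondrial class, against −0.04 over all genes, and 79 of 81 and 62 of 78 values were below 0. edgeR called 0 members, against 0.00426% of all genes. At an unadjusted p under 0.05 were 14 of 81 and 9 of 78, against 2751 of all 23453 genes. DESeq2 called 1 of each class, Rps14 and Mrps18a, against 133 higher and 57 lower over all genes. Mrps18a, which was higher in WT-T than in WT-C (log2 0.31) and lower in R6/2-T than in R6/2-C (log2 −0.51), had the smallest p (interaction log2 −0.82, SE 0.16, edgeR adjusted p = 0.346, DESeq2 adjusted p = 0.00361). The other short protein-coding genes had an interaction median of −0.32. Over both genotypes, shTRAX against control, edgeR called 0 members, against 0.217% of all genes, 0.102% higher and 0.115% lower. At an unadjusted p under 0.05 were 10 of 81 cytosolic and 6 of 78 mitochondrial genes, against 3373 of all 23453. DESeq2 called 2 of each class, against 470 higher and 318 lower over all genes. Without WT-T 1, 6 cytosolic genes were called, and without R6/2-C 2, 1. The shTRAX and control libraries overlapped in every member tested, while they did not in 0.222% of all genes (higher) and 0.243% (lower). Rpl10 had 16.9 to 27.4 CPM with shTRAX and 23.7 to 47.5 CPM with the control virus (log2 −0.64, SE 0.16, adjusted p = 0.132).

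**Figure D5:**
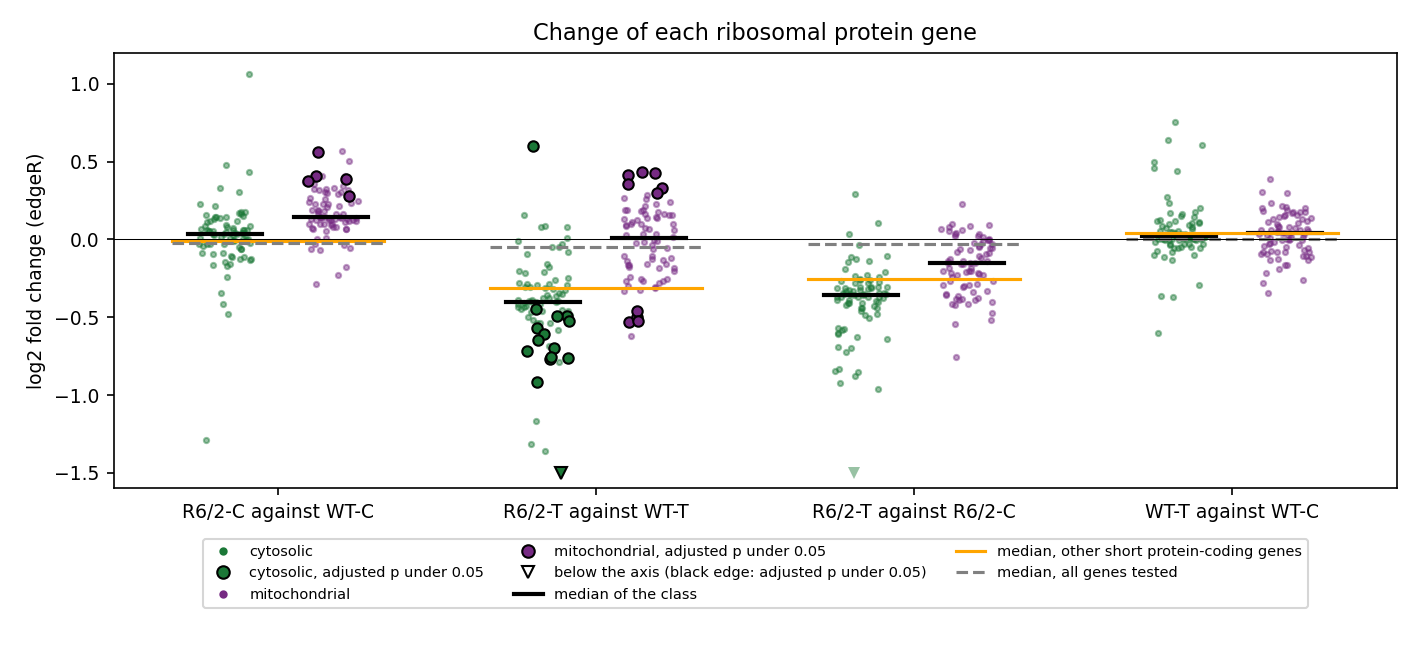
Log2 fold change of each ribosomal protein gene in the 4 comparisons between groups, with the tested genes of the cytosolic class in green and of the mitochondrial class in purple. Large edged points passed the test, black bars are class medians, orange lines are medians of 938 other protein-coding genes with a transcript under 1000 nt, dashed lines are medians of all genes tested, and triangles mark Rpl3l or Rpl39l values below the axis. The cytosolic medians are −0.40 in R6/2-T against WT-T and −0.36 in R6/2-T against R6/2-C, and within 0.04 of 0 in the other comparisons.

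Cytosolic genes with and without the start tract had similar median changes. In R6/2-T against WT-T the 25 genes with the C and pyrimidine tract had a median log2 change of −0.40 and the 34 tested genes without it −0.39, while 2 of the 25 and 7 of the 34 fell. In R6/2-T against R6/2-C the medians were −0.35 and −0.37. The 12 mitochondrial genes with AAGATGGC had a median of −0.14 in R6/2-T against WT-T and the 57 without it 0.04. These medians were 0.19 and 0.14 in R6/2-C against WT-C, and −0.18 and −0.15 in R6/2-T against R6/2-C. For CCGGAAGT in the mitochondrial class they were −0.01 with and 0.03 without it in R6/2-T against WT-T. These are descriptions with no test, and no match says only that the letters are not in the window.

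The other genes of the ribosomal pathways are given by list for R6/2 against WT over both viruses, where 15.3% of all genes rose and 15.4% fell. Of 38 cytosolic ribosome biogenesis factors tested, 21 rose and 2 fell (median log2 0.25), against a median of −0.04 over all genes. Rrn3, the initiation factor of RNA polymerase I, rose by log2 0.42 (SE 0.05) and Wdr12, which matures the large subunit, by 0.47 (SE 0.06). Of 36 cytosolic initiation factors 15 rose and 1 fell (median 0.17), among them Eif4a2, an RNA helicase (log2 0.63), and Eif1ax (log2 0.66), and of 14 elongation and termination factors 5 rose and 0 fell. Of 16 genes of TOP and TORC1 control 3 rose and 2 fell (median 0.05). Rps6kb1, the S6 kinase, rose by log2 0.43 (SE 0.06) and Eif4ebp1, which holds back cap-dependent initiation, fell by 1.06 on the log2 scale (SE 0.19).

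On the mitochondrial side, of 23 assembly and ribosomal RNA factors 6 rose and 0 fell in R6/2 (median log2 0.20), among them Fastkd2, which binds mitochondrial ribosomal RNA (log2 0.46, SE 0.08), and Tfam, which packages mitochondrial DNA (log2 0.27, SE 0.06). Of 17 translation factors 5 rose and 1 fell: the elongation factor Gfm1 rose by log2 0.28 (SE 0.06), while Gfm2, a factor of ribosome recycling, fell by 0.41 on the log2 scale (SE 0.06). Of 17 mitochondrial aminoacyl-tRNA synthetases 2 rose and 0 fell, and as a share the 2 lie below the 15.3% of all genes that rose. In R6/2-T against R6/2-C and in WT-T against WT-C 0 genes of these lists were called by edgeR. Ribosomal proteins whose symbols lie outside the rule gave mixed values: Fau, which is a fusion of a ubiquitin-like protein with a ribosomal protein, fell in R6/2-T against WT-T (log2 −0.91), and Rpl7l1 rose in R6/2-C against WT-C (log2 0.37).

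Processed pseudogenes limit what counts of single cytosolic genes can show. The table lists 281 ribosomal protein names with -ps, and their mean FPKM summed to 2391, against 8676 for the cytosolic members. Rpsa-ps10 is listed at 232 FPKM and Rps2-ps10 at 181 FPKM. The 149 tested pseudogene names had median log2 changes of −0.32 in R6/2-T against WT-T and −0.40 in R6/2-T against R6/2-C, close to those of the cytosolic members, and the sharing of reads between a gene and its copies is uncertain for every cytosolic member. The authors' deposited table of 626 genes for R6/2-T against R6/2-C holds 0 members of either class.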

How the data were processed

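Total RNA of 12 striatal libraries, 3 in each of 4 groups, was analysed. The build GRCm38, HISAT2 and bcl2fastq 2.20 were used, per the submitters' processing notes. The deposited table holds estimated counts per gene headed StringTie per the file headers, a signal of scaled fragments headed Cuffdiff per the file headers, and the deposited FPKM values stand in a separate table. StringTie counts are whole numbers estimated from coverage, not numbers of independent reads. The sources used here do not say whether strand was used. The design had assumed plain read counts. The authors' deposited table of 626 genes gives a ratio, log2 ratio, p-value and q-value, and only the presence of members was read from it. Another 12 columns of per-library values were not used.

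Tests used edgeR 4.0.16 under R 4.3.3 (quasi-likelihood F test, robust, TMM scaling, default expression filter by group), with 12 libraries in a model of 4 group means. Tests were two-sided, with Benjamini-Hochberg adjustment over 23453 genes, and a gene was called at an adjusted p under 0.05. CPM are counts scaled with the TMM factors. Members, gene lists and the rule for naming genes were chosen with earlier results of these data known. The rule names 20 set members, the called members of each comparison (up to 10 per class, or the 3 with the smallest p), the 3 highest and lowest of each class and up to 4 called genes of each list. Rpl10a and Rpl41, like the pseudogenes and the windows shown, were chosen after their values were seen. Some genes that the rule names are counted but not reported here by name. Subunits, and the split of mitochondrial genes by bacterial homologue, were taken from the symbols. RefSeq promoters were searched for motifs on both strands, except for the start tract and TATAAA, which were searched on the gene's strand only. The calculation was tested on simulated data, where 200 of 23453 genes were changed in R6/2-C against WT-C: 29% of the 2-fold changes were recovered, with 1 false call. Alternatives were DESeq2 1.42.0, limma 3.58.1 on log values of FPKM and of scaled fragments (the last chosen after seeing the data), other scaling, filters, blocks and offsets, and leaving out each library.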

Additional observations from a re-analysis of the deposited data

How the results depend on the processing

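Both the counts of called members and the class medians depended on the processing. With the GC and length offset, the cytosolic medians of R6/2-T against WT-T and of R6/2-T against R6/2-C were smaller in size, as given above. For R6/2-C against WT-C, the 5 mitochondrial calls became 9 with DESeq2, 8 with the GC and length offset, 3 with the offset and replicate block, 3 with RLE size factors, 2 without a filter on low counts, 1 with the replicate block and 0 when only the 2 groups were fitted. Over all genes DESeq2 called 1772 higher and 1712 lower in this comparison, where edgeR called 1142 and 989. The 0 cytosolic calls became 1 with DESeq2 and 1 with the offset. For R6/2-T against WT-T, the 15 cytosolic calls became 8 with the offset and replicate block, and 7 and 7 with limma on log2(FPKM + 0.1) and log2(FPKM + 1). For R6/2-T against R6/2-C, the 0 and 0 calls became 10 cytosolic and 7 mitochondrial with DESeq2, and 3 and 1 with limma on scaled fragments. DESeq2 also called 1 and 1 in the interaction and 2 and 2 in shTRAX against control over both genotypes. For R6/2 against WT over both viruses, the 8 cytosolic calls became 3 and 3 with limma on FPKM, 4 without a filter and 4 with the replicate block, and the 13 mitochondrial calls became 21 with the offset. The class distance in R6/2-T was 2.13 with log2(FPKM + 1). For the settings other than the main one and DESeq2, the number called over all genes is not reported here. Their counts of members thus have no background beside them. The cause of the differences between settings was not tested.

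Leaving out 1 library at a time gave, for the cytosolic and mitochondrial classes, 0 to 1 and 1 to 9 calls in R6/2-C against WT-C, 4 to 24 and 3 to 11 in R6/2-T against WT-T, 0 to 7 and 0 to 6 in R6/2-T against R6/2-C, 3 to 14 and 9 to 20 over both viruses, and 0 to 6 and 0 to 0 over both genotypes. It gave 0 in both classes in WT-T against WT-C and in the interaction. The number called over all genes in each of these fits is not reported here. Replicate numbers were not used as pairs in the main model. Deviations of libraries with the same number correlated from −0.253 to 0.203 (median 0.03), and those of other pairs from −0.209 to 0.277. These correlations cannot exclude a pairing, because deviations from the mean of 3 libraries sum to 0 in each group. With the number as a block, R6/2-T against WT-T gave 11 cytosolic and 8 mitochondrial calls. Of the alternatives for 70 results on named members, 1239 kept direction and side of the threshold, 242 lost the call, 29 gained it and 0 reversed.

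A planned count test on whole fragments was not run, because the scaled fragments did not come out as whole numbers. At 3 libraries a group, the simulated test recovered 29% of 2-fold and 4% of 1.5-fold changes in R6/2-C against WT-C. The 200 changed genes were drawn from all genes tested, so these shares do not carry over to the members. The 5 mitochondrial members called in that comparison had changes of 1.21-fold (Mrps2) to 1.48-fold (Mrps22). Intervals of counting error were not computed, since the counts are estimated from coverage.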
